A study of Papio anubis and Macaca fascicularis and Castor canadensis with 48 samples.

Results

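The genes described here are 10 nuclear genes for subunits of the mitochondrial respiratory chain and the ATP synthase, followed through 48 RNA sequencing libraries from the liver, kidney, brain and cerebellum of 8 mammals. They were selected on gene identifier: a gene is included when its mouse Ensembl ID is on the list and has a row in the table of counts. All 10 had a row, among 16816 rows in all, and all 10 had a count above 0 in every library. No level and no fold served as a threshold. The list was drawn up with earlier results of these data known, so in the main comparisons each count of its genes is set beside the same count over all genes tested. The IDs are ENSMUSG00000022820 (Ndufb4), ENSMUSG00000000399 (Ndufa9), ENSMUSG00000025968 (Ndufs1), ENSMUSG00000037916 (Ndufv1), ENSMUSG00000021577 (Sdha), ENSMUSG00000009863 (Sdhb), ENSMUSG00000025651 (Uqcrc1), ENSMUSG00000030884 (Uqcrc2), ENSMUSG00000031818 (Cox4i1) and ENSMUSG00000025393 (Atp5b). The symbols come with the list, since the table holds IDs alone.

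The respiratory chain sits in the inner mitochondrial membrane and passes electrons from NADH and succinate to oxygen while pumping protons, and the ATP synthase uses the proton gradient to make ATP. Complexes I, III, IV and the ATP synthase combine subunits encoded in the nucleus with subunits encoded in mitochondrial DNA. Complex II, which is also an enzyme of the citric acid cycle, is built from nuclear-encoded subunits alone. Kidney tubules, neurons and hepatocytes all depend on oxidative phosphorylation, the kidney for active transport of salt and the brain for ion pumping at membranes.

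All animals were labelled wild-type adult males and no treatment is given. Olive baboon (Papio anubis) gave 6 brain, 6 kidney and 6 liver libraries, and long-tailed macaque (Macaca fascicularis) gave 6 cerebellum, 5 kidney and 6 liver libraries. Beaver (Castor canadensis) gave 2 brain and 2 liver libraries. These 39 libraries came through a primate research center. The other 9 came from an earlier collection: 2 livers each of chipmunk (Tamias sibiricus) and sugar glider (Petaurus breviceps), 1 liver of tube-nosed bat (Murina leucogaster), 1 kidney and 1 liver of American black bear (Ursus americanus), and 1 brain and 1 liver of white-footed mouse (Peromyscus leucopus). A species belongs to 1 collection only, so species and collection cannot be told apart. Groups of 1 library have no replicates, and nothing says whether libraries with the same number in different organs share an animal. Where libraries of a group are not from separate animals, the p-values below measure only the spread between libraries. The organs are bulk tissue, in which fewer cells of a type and less RNA per cell cannot be told apart.

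Libraries held between 6.33 M and 26.8 M counts (M, mega), the fewest in the brain of the white-footed mouse. Levels are given as CPM, the count of a gene per M counts of the whole library. CPM of different genes are not compared, because no gene lengths were used. The share of all counts that fell on the 10 genes was 0.173% ± 0.0116 (SD, n = 6) in baboon liver, 0.537% ± 0.0456 (n = 6) in baboon kidney and 0.387% ± 0.0414 (n = 6) in baboon brain. In macaque it was 0.224% ± 0.0154 (n = 6) in liver, 0.562% ± 0.0462 (n = 5) in kidney and 0.425% ± 0.0331 (n = 6) in cerebellum. In beaver it was 0.285% ± 0.00309 (n = 2) in liver and 0.482% ± 0.036 (n = 2) in brain. By this measure liver was the lowest of the sampled organs in all 3 species, and kidney was the highest in both primates.

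This ordering depends on how libraries are scaled. The tests used TMM factors, which set the bulk of genes equal between libraries, and the factors were low in liver: 0.518 ± 0.0335 (SD, n = 6) in baboon liver against 1.38 ± 0.0662 (n = 6) in kidney and 1.40 ± 0.0409 (n = 6) in brain. In macaque the factors were 0.545 ± 0.0286 (n = 6) in liver, 1.29 ± 0.0484 (n = 5) in kidney and 1.49 ± 0.0366 (n = 6) in cerebellum. With TMM the all-gene median of the log2 fold change was 0.05 for baboon brain over liver and 0.06 for kidney over liver. When libraries were scaled by total count, as CPM are, these medians became 1.48 and 1.47. In macaque the corresponding medians moved from 0.06 to 1.51 for cerebellum over liver and from 0.02 to 1.26 for kidney over liver. For beaver brain over liver the median moved from 0.12 to 1.49, and for macaque cerebellum over kidney from 0.02 to 0.23. For the primates, a fold change against liver that TMM called is therefore given below on both scalings where its direction differs between them. The organ labels were not checked against marker genes, because the marker lists are written as symbols and the rows carry IDs that were not paired with symbols here.

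1 library stood apart before any comparison. The white-footed mouse brain, the shallowest library, had Ndufs1 at 37.5 CPM, Sdha at 70.5 CPM and Uqcrc2 at 31.9 CPM, for each of these genes the lowest mean among the 15 groups of libraries. The same library had the highest Ndufb4, at 351 CPM, and the highest Cox4i1, at 2840 CPM. It enters no comparison with replicates.

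**Figure D1:**
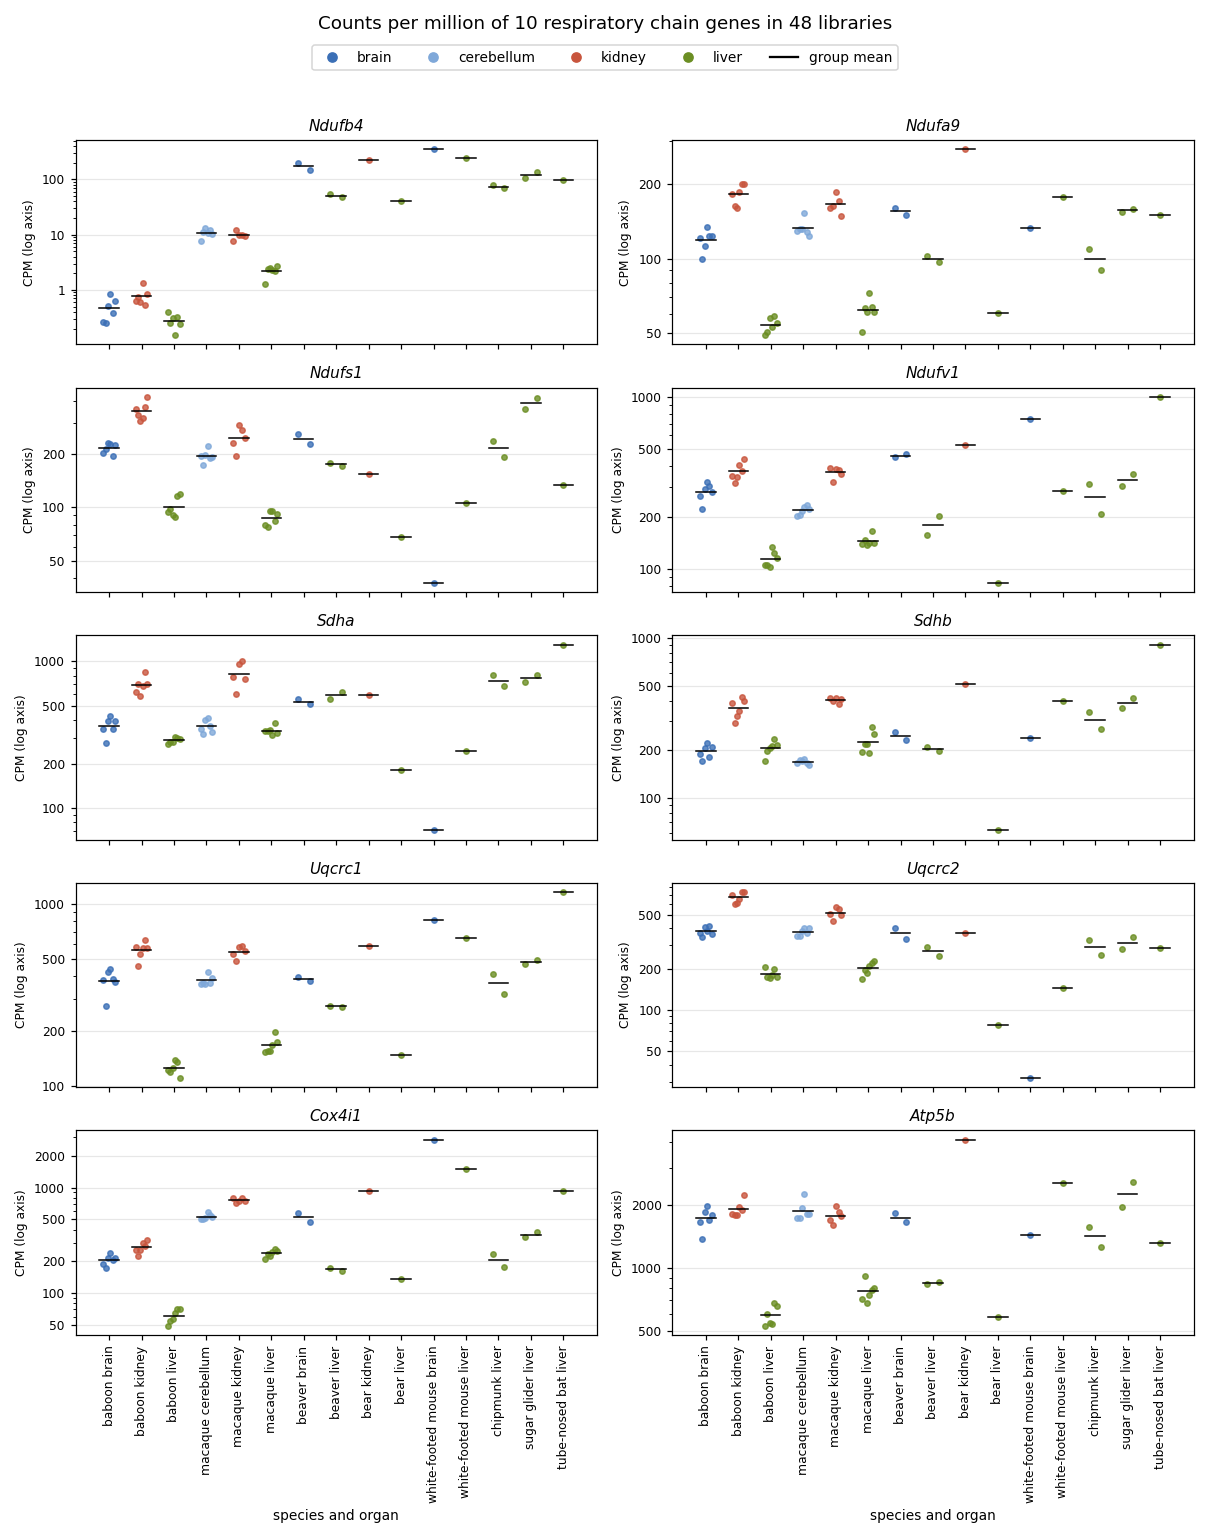
Level of each of the 10 genes in every library, in CPM on a logarithmic axis, 1 panel per gene and 1 column of points per species and organ, with each point a library and each line a group mean. Baboon and macaque kidney lie above liver for all 10 genes, and Ndufb4 falls to below 1.5 CPM in all baboon libraries.

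The first question was how the 10 genes differ between organs of the same species. With CPM, all 10 genes were higher in kidney than in liver without any overlap of libraries, in baboon and again in macaque. Among all genes with a count, 63.2% in baboon and 59.7% in macaque did the same, so a kidney level above liver was the usual case on this scale. In brain over liver of baboon 7 of the 10 did not overlap and were higher, against 58.5% of all genes, and in cerebellum over liver of macaque 8 did, against 58.2%. The exception in the other direction was Sdhb in macaque, lower in every cerebellum than in every liver, as were 11.1% of all genes. Between kidney and brain, 6 of the 10 were lower in every baboon brain than in every baboon kidney, against 27.0% of all genes. In macaque 6 were lower in every cerebellum than in every kidney, against 25.8%. In neither species was any of the 10 higher in all neural libraries than in all kidneys.

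With TMM scaling and edgeR's quasi-likelihood test (adjusted p under 0.05 by the Benjamini-Hochberg method over all genes), 7 of the 10 genes were higher in baboon kidney than liver, while 35.3% of all 13890 genes tested were called higher. Sdhb alone was called lower, beside 31.2% of all genes. The median log2 fold change of the 10 was 0.31. In macaque kidney over liver 3 were called higher, against 32.7% of all genes, and again Sdhb alone lower, against 30.4%, with a median of 0.14. The 3 were Ndufb4, Uqcrc1 and Cox4i1. With upper-quartile factors 6 were called higher, against 5176 of all 13927 genes, and Sdhb lower, against 3617. Libraries with the same number deviated together in kidney and liver of both species, and with that number as a block the calls were 6 higher, against 36.0% of all genes, and 1 lower, against 31.3%, in baboon, where Atp5b was lost. In macaque the block gave 5 higher, against 33.4%, and 1 lower, against 30.3%, with Ndufa9 at 0.23 (adjusted p = 0.0247) and Ndufs1 at 0.29 (adjusted p = 0.00832) added by edgeR. On total-count scaling all 10 were called higher in kidney in both species, against 11131 of 13890 genes in baboon and 10644 of 13927 in macaque. The medians of the 10 were then 1.72 and 1.38, beside 1.47 and 1.26 for all genes.

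For brain over liver of baboon, TMM scaling gave 1 gene called higher, Cox4i1, against 42.4% of all genes, and 5 called lower, against 40.0%: Ndufa9, Ndufs1, Sdha, Sdhb and Uqcrc2. The median of the 10 was -0.31. Total-count scaling turned the direction of Ndufa9, Ndufs1, Sdha and Uqcrc2, with 8 genes called higher, 0 lower and a median of 1.12 beside the all-gene median of 1.48. In macaque cerebellum over liver, TMM gave 1 gene higher, Ndufb4, against 42.1% of all genes, and 8 lower, against 39.8%, with a median of -0.32. Among the 8, Ndufs1 was no longer called with upper-quartile factors, at -0.22 (adjusted p = 0.0531 by edgeR). Total-count scaling gave 8 higher and 1 lower, Sdhb, with a median of 1.13 beside 1.51 for all genes. On either scaling the median of the 10 lay below that of all genes. Over all genes, the calls for baboon brain over liver were 5884 higher and 5559 lower with TMM, and 9966 higher and 2284 lower with total counts. The calls for baboon kidney over liver were 4907 and 4332 with TMM, and 11131 and 1122 with total counts. In macaque they went from 5866 higher and 5539 lower to 9885 and 2449 for cerebellum over liver, and from 4557 and 4231 to 10644 and 1197 for kidney over liver.

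Brain against kidney was the comparison whose calls did not turn with the scaling. In baboon 0 of the 10 were called higher in brain, against 38.2% of all genes, and 8 were called lower, against 39.1%. In macaque cerebellum over kidney the counts were 0, against 37.9%, and 8, against 37.8%. The same 8 genes were called lower in both species: Ndufa9, Ndufs1, Ndufv1, Sdha, Sdhb, Uqcrc1, Uqcrc2 and Cox4i1. The median log2 fold changes were -0.68 in baboon and -0.70 in macaque with TMM, and -0.66 and -0.49 with total counts. Ndufb4 and Atp5b were not called in either species with TMM, and their log2 fold changes were -0.73 ± 0.35 (SE, adjusted p = 0.0619) and -0.16 ± 0.11 (adjusted p = 0.184) in baboon. With upper-quartile factors both were called lower in baboon brain, Ndufb4 at -0.82 (adjusted p = 0.0395) and Atp5b at -0.25 (adjusted p = 0.0409). The 3 comparisons within a species share libraries in pairs, so their counts are not independent of each other.

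**Figure D2:**
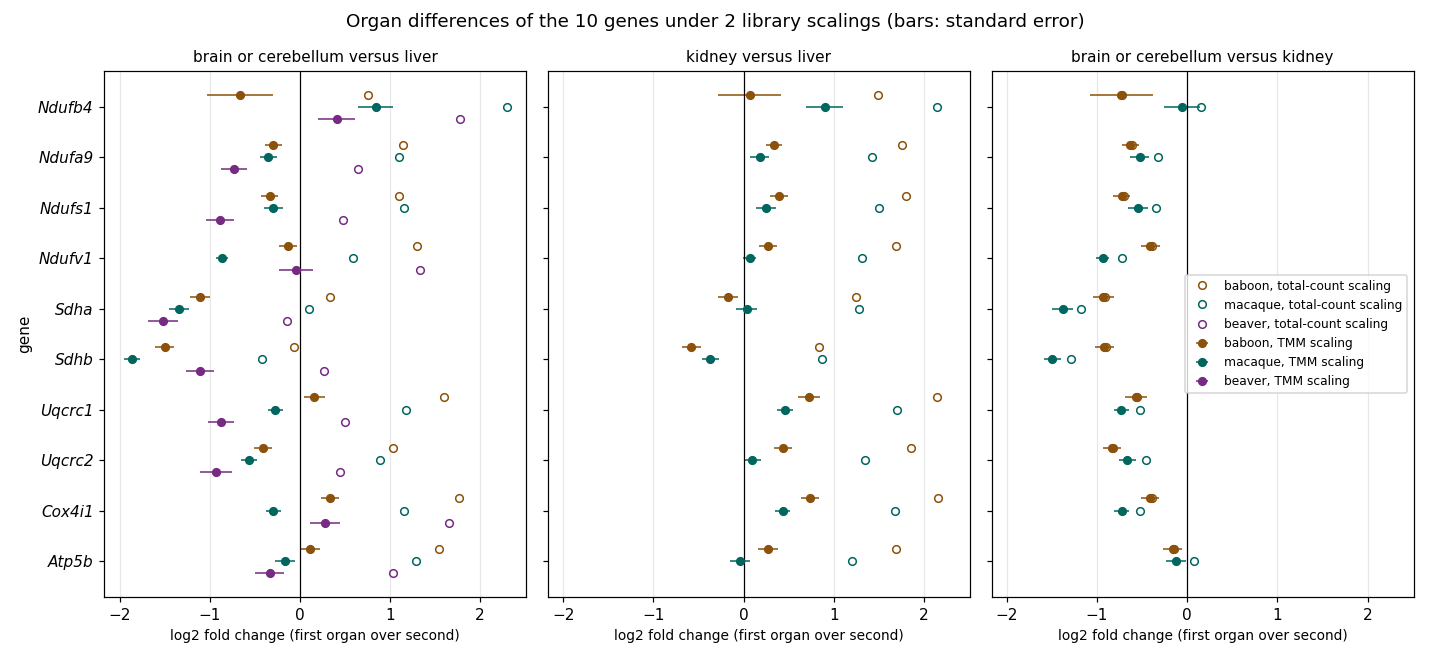
Log2 fold change of each of the 10 genes between organs, with TMM scaling (filled points, bars are SE) and with total-count scaling (open points), for baboon, macaque and beaver. Points against liver move to the right by more than 1 unit with total counts, while points of brain or cerebellum against kidney stay below 0 for 8 genes in both primates.

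Complex I takes electrons from NADH. Its matrix arm carries Ndufv1, the subunit that binds NADH and flavin mononucleotide, and Ndufs1, the largest of the iron-sulfur subunits that follow it. The lowest, median and highest levels of Ndufs1 were 88.1, 96.0 and 119 CPM in baboon liver, 310, 347 and 421 CPM in kidney, and 195, 219 and 231 CPM in brain. The 3 organs did not overlap. In kidney over liver the TMM log2 fold change was 0.39 ± 0.10 (SE, adjusted p = 0.00149 by edgeR). In brain over kidney it was -0.73 ± 0.10 (adjusted p = 1.47e-06). In brain over liver it was -0.34 ± 0.10 (adjusted p = 0.00368), which total-count scaling turned to 1.10. Macaque Ndufs1 levels were 77.8, 87.9 and 96.0 CPM in liver and 174, 194 and 222 CPM in cerebellum, and the 5 kidneys stood at 233, 196, 291, 273 and 247 CPM. There the liver stood alone, while kidney and cerebellum overlapped. Macaque cerebellum over liver was -0.30 ± 0.11 with TMM (adjusted p = 0.0155) and 1.16 with total counts.

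Ndufv1 gave 103, 111 and 134 CPM (lowest, median, highest) in baboon liver, 317, 360.5 and 439 CPM in kidney, and 224, 287 and 321 CPM in brain, the last 2 overlapping in a narrow band. In macaque it gave 138, 143 and 168 CPM in liver and 205, 222 and 236 CPM in cerebellum, below the 5 kidneys at 385, 320, 381, 379 and 359 CPM. Macaque cerebellum over liver was -0.86 ± 0.07 on the log2 scale with TMM (adjusted p = 1.94e-09 by edgeR) and 0.59 with total counts. The difference of macaque cerebellum from kidney was -0.94 ± 0.07 on the log2 scale (adjusted p = 1.66e-09). In baboon the brain difference from kidney was -0.41 ± 0.10 (adjusted p = 0.00127). Brain and cerebellum are different samplings of neural tissue, and the species differ as well, so whether these 2 values differ was not tested.

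Ndufa9 is an accessory subunit at the junction of the matrix arm and the membrane arm. Its levels were 49.1, 53.9 and 58.4 CPM in baboon liver, 161, 185 and 201 CPM in kidney, and 100, 122 and 134 CPM in brain, with no overlap among the 3 organs. Macaque livers ran from 50.4 to 72.4 CPM, cerebellum from 124 to 153 CPM and kidney from 149 to 186 CPM, so the last 2 overlapped. In brain over kidney it differed by -0.63 ± 0.09 on the log2 scale in baboon (adjusted p = 4.39e-06) and in cerebellum over kidney by -0.53 ± 0.10 in macaque (adjusted p = 1.33e-04). Baboon brain over liver was -0.29 ± 0.09 with TMM (adjusted p = 0.00628 by edgeR) and 1.14 with total counts. Macaque cerebellum over liver was -0.35 ± 0.10 with TMM (adjusted p = 0.00302) and 1.10 with total counts.

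Ndufb4, an accessory subunit of the membrane arm, was barely counted in baboon: 4 to 10 counts per liver, 10 to 24 per kidney and 4 to 12 per brain. These are mean levels of 0.277 CPM ± 0.083 (SD, n = 6), 0.789 CPM ± 0.286 (n = 6) and 0.476 CPM ± 0.228 (n = 6). At that depth none of the baboon organ differences was called with TMM, and the SE of each log2 fold change was 0.35 or 0.36. Macaque libraries held 34 to 222 counts. Their levels were 1.27, 2.34 and 2.70 CPM in liver and 7.59, 11.1 and 13.5 CPM in cerebellum, and 7.62, 12.4, 9.93, 9.80 and 9.52 CPM in the 5 kidneys. Liver was below the other organs without overlap, with TMM log2 fold changes of 0.90 ± 0.20 for kidney (adjusted p = 8.80e-04) and 0.84 ± 0.20 for cerebellum (adjusted p = 6.97e-04).

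Complex II passes electrons from succinate to ubiquinone. Sdha is its flavoprotein, which oxidises succinate, and Sdhb carries the iron-sulfur clusters. Sdhb levels were 169, 208 and 231 CPM in baboon liver, 293, 369 and 427 CPM in kidney, and 170, 196 and 221 CPM in brain. Baboon liver and brain overlapped almost fully, and kidney stood above both. In macaque Sdhb ran 189, 217 and 275 CPM in liver and 159, 167 and 175 CPM in cerebellum, and the kidneys stood at 417, 404, 422, 384 and 416 CPM. Here cerebellum lay below liver and liver below kidney without overlap.

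On the TMM scale Sdhb had the most negative log2 fold change of the 10 genes in neural tissue over liver in both primates, -1.50 ± 0.11 in baboon (SE, adjusted p = 2.15e-10) and -1.86 ± 0.09 in macaque (adjusted p = 1.92e-12). With total-count scaling it was -0.07 ± 0.10 in baboon, no longer called (adjusted p = 0.550), and -0.42 ± 0.09 in macaque, still called (adjusted p = 3.28e-04). In kidney over liver it was -0.58 ± 0.11 in baboon and -0.37 ± 0.09 in macaque with TMM, but 0.83 ± 0.11 and 0.87 ± 0.09 with total counts, so that direction belongs to the scaling. Against kidney it was lower in neural tissue on both scalings, by TMM -0.92 ± 0.11 in baboon (adjusted p = 2.55e-07) and -1.50 ± 0.09 in macaque (adjusted p = 9.49e-11).

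Sdha levels were 275, 288 and 306 CPM in baboon liver, 576, 685 and 848 CPM in kidney, and 277, 370 and 426 CPM in brain. Macaque gave 316, 334 and 377 CPM in liver, 321, 356 and 413 CPM in cerebellum, and 783, 604, 956, 1000 and 758 CPM in the 5 kidneys. In both primates the neural libraries overlapped liver and lay below every kidney. Over kidney, Sdha differed by -0.93 ± 0.11 in baboon brain (adjusted p = 4.47e-07) and -1.38 ± 0.12 in macaque cerebellum (adjusted p = 4.55e-09). Over liver, TMM gave -1.11 ± 0.11 in baboon brain (adjusted p = 3.39e-08) and -1.35 ± 0.11 in macaque cerebellum (adjusted p = 2.77e-09), whereas total counts gave 0.33 ± 0.11 and 0.10 ± 0.11, the opposite sign.

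Complex III hands electrons from ubiquinol to cytochrome c. Uqcrc1 and Uqcrc2 are its core proteins on the matrix side, related to mitochondrial processing peptidases. Uqcrc1 levels were 111, 124 and 138 CPM in baboon liver, 453, 573 and 629 CPM in kidney, and 273, 384 and 437 CPM in brain, with no overlap among the organs. Macaque gave 154, 162 and 199 CPM in liver, 362, 369 and 421 CPM in cerebellum, and 530, 487, 577, 585 and 550 CPM in the 5 kidneys, again without overlap. Kidney over liver was higher on both scalings, by TMM 0.73 ± 0.12 in baboon (SE, adjusted p = 2.78e-05) and 0.46 ± 0.08 in macaque (adjusted p = 1.22e-04). Neural tissue over liver gave 0.16 ± 0.12 in baboon, not called (adjusted p = 0.216), and -0.27 ± 0.08 in macaque (adjusted p = 0.00469), which total-count scaling turned to 1.18.

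Uqcrc2 levels were 172, 178 and 209 CPM in baboon liver, 595, 676 and 732 CPM in kidney, and 342, 374 and 415 CPM in brain. Macaque levels were 169, 204 and 228 CPM in liver, 349, 373 and 401 CPM in cerebellum, and 502, 450, 565, 554 and 495 CPM in the kidneys. The 3 organs were separate in each species, in the order liver, neural tissue, kidney on the CPM scale. Baboon brain over kidney differed by -0.84 ± 0.10 on the log2 scale (adjusted p = 3.67e-07) and macaque cerebellum over kidney by -0.66 ± 0.10 (adjusted p = 5.53e-06). Baboon brain over liver was -0.41 ± 0.10 with TMM (adjusted p = 0.00103 by edgeR) and 1.03 with total counts. Macaque cerebellum over liver was -0.57 ± 0.09 with TMM (adjusted p = 1.72e-05) and 0.89 with total counts.

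Complex IV reduces oxygen to water. Cox4i1 is the widely expressed isoform of its nuclear subunit 4, which takes part in assembly and in regulation by ATP. Its levels were 49.3, 61.5 and 70.8 CPM in baboon liver, 225, 270.0 and 315 CPM in kidney, and 174, 211 and 242 CPM in brain. In macaque they were 209, 240 and 262 CPM in liver, 502, 517 and 585 CPM in cerebellum, and 803, 718, 752, 788 and 739 CPM in the kidneys. The liver lay below the other organs in both species. Baboon kidney over liver was 0.74 ± 0.10 on the log2 scale with TMM (adjusted p = 2.86e-06) and macaque kidney over liver 0.43 ± 0.08 (adjusted p = 2.24e-04). Brain over liver was 0.33 ± 0.10 in baboon (adjusted p = 0.00497), while macaque cerebellum over liver was -0.30 ± 0.08 (adjusted p = 0.00261) and turned to 1.16 with total counts.

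Atp5b is the beta subunit of the F1 head of the ATP synthase, which carries the catalytic sites. Its levels were 531, 577 and 681 CPM in baboon liver, 1785, 1853 and 2222 CPM in kidney, and 1384, 1749 and 1979 CPM in brain. In macaque they were 679, 765 and 911 CPM in liver, 1730, 1809 and 2265 CPM in cerebellum, and 1697, 1605, 1979, 1853 and 1779 CPM in the kidneys. Kidney and neural tissue overlapped in both species and liver lay below. With TMM, Atp5b was called in 1 of the 6 organ comparisons of the primates, baboon kidney over liver at 0.27 ± 0.11 (adjusted p = 0.0365). That call was lost when kidney library 5 or 6 or liver library 1, 3 or 4 was left out, with an adjusted p between 0.0508 and 0.0938 by edgeR. It was also lost with the replicate number as a block (adjusted p = 0.0546).

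Ratios of a pair of these genes inside a library do not depend on the scaling of libraries. For 5 pairs of genes and 6 organ comparisons in baboon and macaque, log2 ratios of counts were compared with two-sided exact permutation tests over libraries, with p-values adjusted by the Benjamini-Hochberg method over the 30 tests. Of the 30, 20 had an adjusted p under 0.05. Ratios of other gene pairs were not tested, so this count has no background beside it. Single genes were often called in the same comparisons. With TMM, 11443 of 13890 genes were called in baboon brain over liver and 8788 of 13927 in macaque kidney over liver. The smallest p the ratio tests can give is 0.00216 for 6 against 6 libraries and 0.00433 for 6 against 5. With libraries of the same number paired, 0 of the 30 passed, and the adjusted exact permutation p of the 20 lay between 0.0781 and 0.156. The p-values given for each ratio below are those of the unpaired tests. A paired test of 6 pairs cannot go below p = 0.03125 and one of 5 pairs not below 0.0625 (exact). After adjustment over the 30 tests, a call would have needed nearly all tests of 6 pairs to reach their limit. The absence of paired calls therefore cannot decide whether the differences hold with pairing. The ratios are compared between organs of a species only, since gene models may differ between species.

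For the 2 genes of complex II, the mean ratio of Sdha to Sdhb counts was lowest in liver in both primates. The log2 ratio of Sdha to Sdhb was 0.51 ± 0.108 (SD, n = 6) in baboon liver, 0.89 ± 0.0965 (n = 6) in brain and 0.92 ± 0.202 (n = 6) in kidney. Brain lay above liver without overlap (exact permutation p = 0.00216, adjusted 0.00812), and kidney lay above liver with some overlap (exact permutation p = 0.00433, adjusted 0.00866). In macaque the ratio was 0.60 ± 0.162 (n = 6) in liver, 1.11 ± 0.123 (n = 6) in cerebellum and 0.98 ± 0.308 (n = 5) in kidney. Cerebellum differed from liver (exact permutation p = 0.00216, adjusted 0.00812), and kidney differed with overlap (exact permutation p = 0.0303, adjusted 0.0455). The macaque kidney result was lost, with an adjusted exact permutation p of 0.068 or more, when kidney library 1, 3, 5 or 6 or liver library 2, 3, 5 or 6 was left out. In the other 3 species with a pair of organs, liver was not the lower: the ratio was 1.53 ± 0.176 (SD, n = 2) in beaver liver and 1.13 ± 0.0379 (n = 2) in brain, 1.53 in the bear liver and 0.21 in the bear kidney, and -0.71 in the white-footed mouse liver and -1.74 in its brain, with no test made. Neural tissue and kidney did not separate in either primate, with differences of -0.02 in baboon (exact permutation p = 0.831) and 0.12 in macaque (exact permutation p = 0.394).

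Within complex III, the log2 ratio of Uqcrc1 to Uqcrc2 was likewise lowest in primate liver. It was -0.56 ± 0.139 (SD, n = 6) in baboon liver, -0.27 ± 0.0805 (n = 6) in kidney and -0.01 ± 0.178 (n = 6) in brain. All 3 baboon differences had an adjusted p under 0.05, the largest for brain over liver at 0.55 (exact permutation p = 0.00216, adjusted 0.00812). In macaque the ratio was -0.27 ± 0.104 (n = 6) in liver, 0.09 ± 0.0452 (n = 5) in kidney and 0.02 ± 0.0569 (n = 6) in cerebellum. Both differed from liver without overlap (exact permutation p = 0.00433 and 0.00216), while cerebellum and kidney differed by -0.07 (exact permutation p = 0.0606, adjusted 0.0866). In bear the liver was the higher, at 0.94 with the kidney at 0.67. Liver was the lower in beaver, at 0.02 ± 0.137 (SD, n = 2) with brain at 0.08 ± 0.146 (n = 2), and in white-footed mouse, at 2.14 with brain at 4.67. No test was made in these species.

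The log2 ratio of Atp5b to Cox4i1, across complex V and complex IV, was lowest in primate kidney. It was 2.81 ± 0.094 (SD, n = 6) in baboon kidney, 3.06 ± 0.051 (n = 6) in brain and 3.28 ± 0.152 (n = 6) in liver. Kidney differed from liver by -0.47 and from brain by -0.24, both without overlap (exact permutation p = 0.00216 for each, adjusted 0.00812). In macaque it was 1.23 ± 0.119 (n = 5) in kidney, 1.70 ± 0.140 (n = 6) in liver and 1.82 ± 0.0894 (n = 6) in cerebellum. Kidney again lay below both without overlap (exact permutation p = 0.00433 for each, adjusted 0.00866). In bear, the other species with a kidney, the kidney was not the lower, at 2.14 with the liver at 2.11 and no test made. Brain lay below liver in baboon (exact permutation p = 0.00866, adjusted 0.0162), and in macaque cerebellum and liver were not separated (exact permutation p = 0.0996, adjusted 0.136).

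Within complex I the pairs gave a less regular picture. The log2 ratio of Ndufs1 to Ndufv1 was -0.75 ± 0.197 (SD, n = 6) in macaque liver, -0.57 ± 0.147 (n = 5) in kidney and -0.18 ± 0.104 (n = 6) in cerebellum, where cerebellum stood above both without overlap (exact permutation p = 0.00216 and 0.00433). In baboon it was -0.19 ± 0.216 (n = 6) in liver, -0.07 ± 0.148 (n = 6) in kidney and -0.38 ± 0.193 (n = 6) in brain, where only brain and kidney differed (exact permutation p = 0.0152, adjusted 0.0253). The neural sample had the highest ratio in macaque and the lowest mean in baboon. Ndufa9 to Ndufb4 differed among all 3 macaque organs, the call for cerebellum over kidney being lost in 8 of the settings that leave out 1 library, and no baboon difference was called for this pair.

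**Figure D3:**
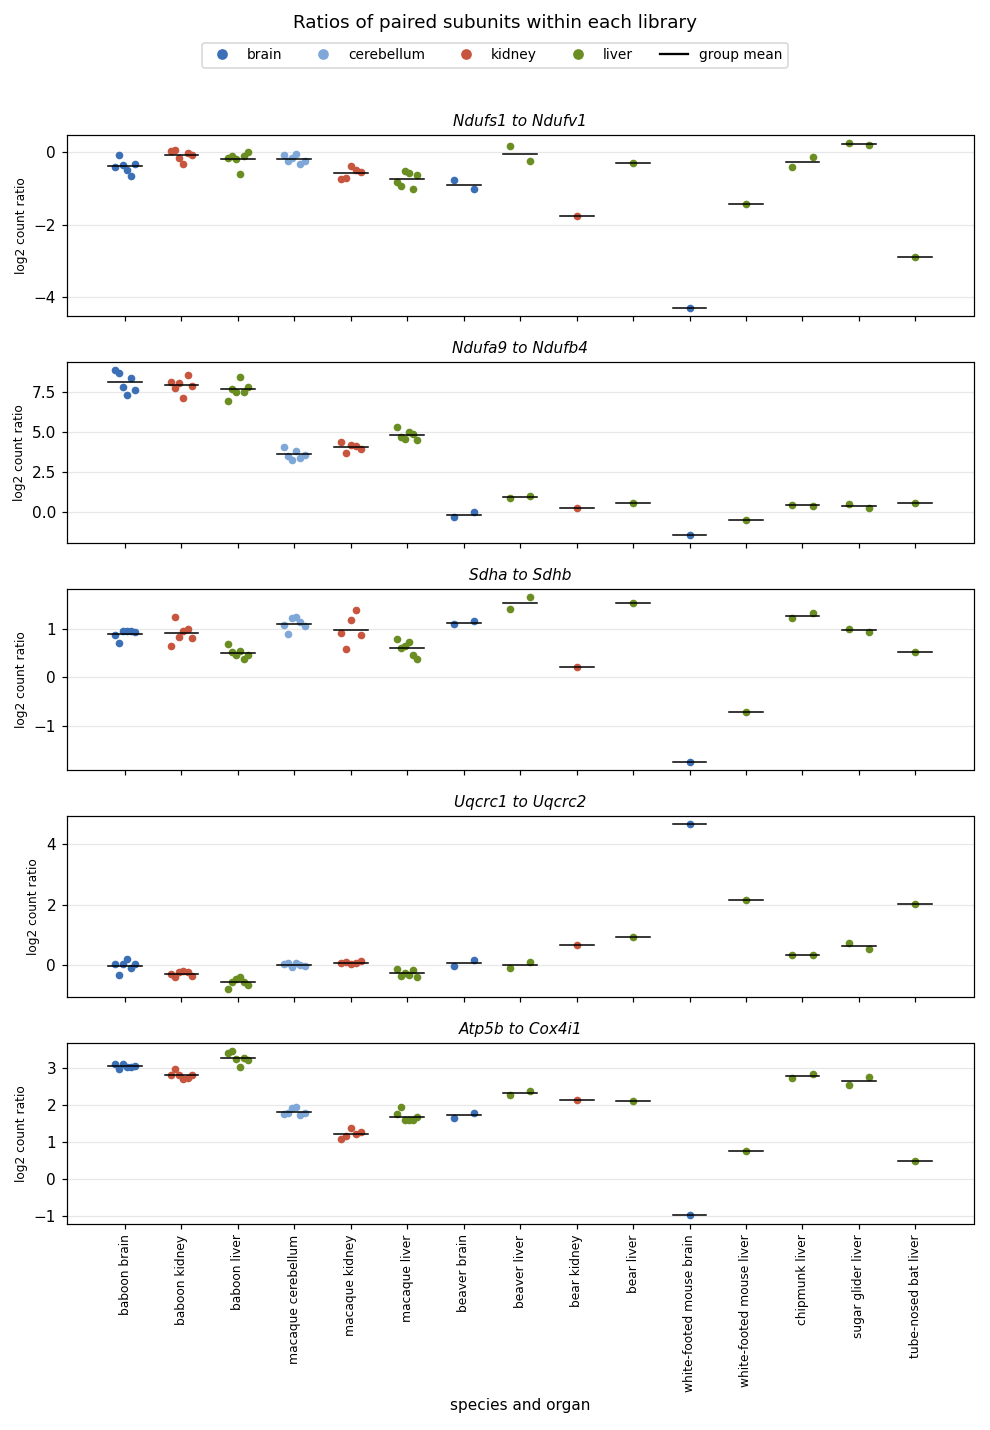
Log2 ratio of counts of paired genes within each library, 1 panel per pair, with a point per library, 1 column of points per species and organ, and a line at each group mean. In baboon and macaque Sdha to Sdhb and Uqcrc1 to Uqcrc2 have their lowest means in liver, and Atp5b to Cox4i1 in kidney.

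Beaver added a species outside the primates for brain and liver, with 2 libraries per organ. On the CPM scale 9 of the 10 genes were higher in both brains than in both livers, against 72.8% of all genes. Sdha was the exception, at 553 and 510 CPM in brain and 552 and 619 CPM in liver, which overlapped. With TMM, 0 genes were called higher in brain, against 35.2% of all 13309 genes tested, and 6 lower, against 29.3%: Ndufa9, Ndufs1, Sdha, Sdhb, Uqcrc1 and Uqcrc2. The median log2 fold change was -0.80, and total-count scaling turned 5 of these 6 directions and gave a median of 0.57, with 7 genes called higher and 0 lower. Over all genes the calls went from 4681 higher and 3895 lower to 9014 and 1569. The most negative TMM value was that of Sdha, -1.51 ± 0.17 (SE, adjusted p = 0.00132 by edgeR), followed by Sdhb at -1.11 ± 0.15 (adjusted p = 0.0028). With total counts Sdha was at -0.14 ± 0.15 and Sdhb at 0.27 ± 0.15, neither called. Some of the 6 TMM calls were lost when 1 library was left out, which leaves an organ with 1 library. The calls over all genes in those settings are not given here. The TMM median of the 10 then stayed between -0.84 and -0.73.

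Cox4i1 and Ndufb4 were the genes with the highest TMM values in beaver brain over liver. Cox4i1 stood at 576 and 477 CPM in brain and 172 and 163 CPM in liver. Ndufb4 stood at 199 and 149 CPM in brain and 54.3 and 47.3 CPM in liver. Neither was called with TMM, with log2 fold changes of 0.28 ± 0.17 (SE, adjusted p = 0.199 by edgeR) and 0.41 ± 0.20 (adjusted p = 0.134), and both were called with total counts.

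Bear gave 1 kidney and 1 liver, without replicates and so without a test. All 10 genes were at least 2-fold higher in the kidney library, against 37.2% of the 11192 genes with a count in both libraries and at 1 CPM or more in either, and 0 were 2-fold lower, against 22.6%. The median log2 ratio of CPM was 2.35 for the 10 and 0.46 for all genes. Sdhb was at 512 CPM in kidney and 62.4 CPM in liver, 8.19-fold apart. Atp5b was at 4107 and 584 CPM, and Cox4i1 at 935 and 135 CPM. Ndufs1 had the smallest ratio, 2.30-fold, from 155 and 67.6 CPM. The exact 95% binomial intervals, which cover counting error only, were 495 to 528 CPM for Sdhb in kidney and 56.9 to 68.4 CPM in liver. Bear liver had the lowest mean CPM of the 15 groups for Ndufv1, Sdhb and Atp5b.

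White-footed mouse gave 1 brain and 1 liver. There 1 gene, Ndufv1, was at least 2-fold higher in brain, against 51.5% of all genes, and 3 were at least 2-fold lower, against 21.4%. The 3 were Ndufs1, at 37.5 CPM in brain and 105 CPM in liver, Sdha, at 70.5 and 244 CPM, and Uqcrc2, at 31.9 and 146 CPM. Ndufv1, at 744 and 284 CPM, and Uqcrc1, at 812 and 648 CPM, were higher in the brain library, while Sdhb, the partner of Sdha, was lower there, at 235 and 400.5 CPM. In the brain library the log2 ratio of Uqcrc1 to Uqcrc2 was 4.67 and that of Ndufs1 to Ndufv1 was -4.31. The liver library of the species had 2.14 and -1.43, and the tube-nosed bat liver 2.02 and -2.91. In the other 12 groups of libraries the first ratio had means between -0.56 and 0.94, and the second between -1.77 and 0.23. The first ratio was therefore higher in these 3 libraries than any other group mean, across 2 species. Their depth was 6.33 M counts in the mouse brain, 12.8 M in the mouse liver and 8.64 M in the bat liver, and the part of depth in these ratios was not tested.

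Baboon and macaque were next compared within the same organ. The sources used here do not say how a read of a baboon or macaque came to be counted under a mouse ID, so these folds may include differences between gene models. In kidney 2 genes were called higher in baboon, against 15.3% of all 13082 genes, and 2 lower, against 15.6%. In liver 1 was called higher, against 12.3% of all 11948 genes, and 3 lower, against 12.5%. DESeq2 called 1 higher in liver, against 1785 of all genes, and 5 lower, against 1763. It added Ndufv1 at -0.24 (adjusted p = 0.00276 by DESeq2) and Atp5b at -0.26 (adjusted p = 0.0226). Both were also called lower in liver with total counts, where 0 were called higher and 5 lower, against 997 and 1987 of all genes. Without overlap of CPM, 2 genes were higher and 2 lower in baboon kidney, against 9.49% and 6.14% of all genes. In liver 5 genes were lower in every baboon library, against 6.95%: Ndufb4, Ndufv1, Sdha, Uqcrc1 and Cox4i1. The median log2 fold change of the 10 was -0.17 in liver and -0.04 in kidney. With total counts the liver median was -0.29 beside -0.12 for all genes.

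Ndufb4 and Cox4i1 were the genes with a large difference, lower in baboon in both organs. Ndufb4 had log2 fold changes of -2.86 ± 0.30 in liver (SE, adjusted p = 1.97e-05 by edgeR) and -3.71 ± 0.24 in kidney (adjusted p = 3.26e-07). Cox4i1 had -1.84 ± 0.10 in liver (adjusted p = 2.14e-08) and -1.55 ± 0.09 in kidney (adjusted p = 1.98e-07). The livers ran from 49.3 to 70.8 CPM of Cox4i1 in baboon and from 209 to 262 CPM in macaque, and the kidneys from 225 to 315 CPM in baboon and from 718 to 803 CPM in macaque. The other 8 genes had log2 fold changes between -0.32 and 0.45 in these comparisons.

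Among those 8, Ndufs1 was higher in baboon in both organs, by 0.32 ± 0.11 in liver (SE, adjusted p = 0.0495 by edgeR) and 0.45 ± 0.12 in kidney (adjusted p = 0.0143). Its kidney levels did not overlap, with baboon from 310 CPM up and macaque up to 291 CPM. The liver call lies at the threshold and was lost with total-count scaling (adjusted p = 0.199), without the filter on low counts (adjusted p = 0.0627), and in 9 of the 12 settings that leave out 1 library. Uqcrc1 was lower in baboon liver by -0.30 ± 0.10 (adjusted p = 0.0438), a call lost in 8 of those 12 settings, with upper-quartile factors (adjusted p = 0.0628) and without the filter (adjusted p = 0.0561). Uqcrc2 was higher in baboon kidney by 0.32 ± 0.10 (adjusted p = 0.0282), with levels from 595 to 732 CPM against 450 to 565 CPM in macaque, and was lost in 6 of 11 such settings.

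Whether the kidney to liver difference itself differed between baboon and macaque was tested with an interaction term. Of the 10 genes 0 were called higher or lower by edgeR, against 5.21% and 4.80% of all 13600 genes. At an unadjusted p under 0.05 by edgeR there were 5 of the 10, against 3249 of the 13600 genes. With the replicate number as a block there was 1 of the 10, against 3501. DESeq2 called 0 of the 10, against 946 higher and 972 lower over all genes. The lowest adjusted p was that of Cox4i1, 0.119, with a difference of 0.32 ± 0.13 on the log2 scale. Total-count scaling, which moved the all-gene median from 0.04 to 0.20, called 4: Uqcrc1, Uqcrc2, Cox4i1 and Atp5b. Over all genes the calls were 708 higher and 653 lower with TMM and 1223 and 465 with total counts.

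**Figure D4:**
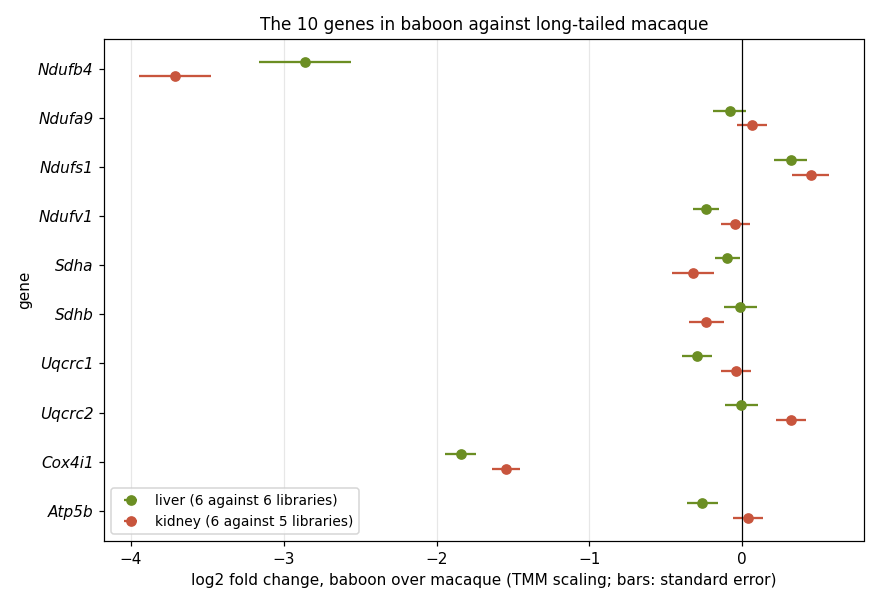
Log2 fold change of baboon over macaque for the 10 genes in liver and in kidney, with TMM scaling, where points are edgeR estimates and bars are SE. Ndufb4 and Cox4i1 lie below -1.5 in both organs, and the other 8 genes lie between -0.32 and 0.45.

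All 21 livers were then compared across the 8 species. Each of the 10 genes was called by the F test of edgeR for any difference among species, as were 93.9% of all 14371 genes, so a call here is the usual case. The largest F was that of Ndufb4 (adjusted p = 8.97e-13), followed by Cox4i1 (adjusted p = 1.25e-12), and the smallest was that of Uqcrc2 (adjusted p = 0.00105). Species with 1 liver are assumed in this fit to vary like the others. As between baboon and macaque, differences among the 8 species may include differences between gene models. Within the 14 livers of baboon, macaque and beaver, a setting chosen after seeing the data, Sdhb (adjusted p = 0.509) and Uqcrc2 (adjusted p = 0.0668) were no longer called, and the other 8 were. In that setting 8397 of all 13125 genes tested were called.

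In complex I, mean Ndufb4 rose through the livers from baboon at 0.277 CPM and macaque at 2.23 CPM to bear at 41.1, beaver at 50.8, chipmunk at 73.6, bat at 99.6, sugar glider at 120 and white-footed mouse at 248 CPM, with no overlap of libraries between neighbours. Ndufa9 ran from 54.0 CPM in baboon, through bear at 60.6 and macaque at 62.0, to 178 CPM in white-footed mouse. For Ndufa9 baboon and bear each overlapped macaque, and chipmunk overlapped beaver. Ndufs1 was lowest in bear at 67.6 CPM, with macaque, baboon and white-footed mouse overlapping in sequence between 87.4 and 105 CPM, and highest in sugar glider at 388 CPM. Ndufv1 ran from 83.6 CPM in bear to 331 CPM in sugar glider, with the bat library apart at 1001 CPM, and there macaque overlapped beaver and chipmunk overlapped white-footed mouse.

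In complex II, Sdha ran from 181 CPM in bear to 766 CPM in sugar glider, which overlapped chipmunk, and 1303 CPM in bat. Sdhb ran from 62.4 CPM in bear through beaver, baboon, macaque and chipmunk, which overlapped in sequence between means of 202 and 307 CPM. Above them came sugar glider at 390 CPM and white-footed mouse at 400.5 CPM, which overlapped, and bat at 907 CPM. In complex III, Uqcrc1 was separate at each step from 125 CPM in baboon to 1157 CPM in bat. Uqcrc2 ran from 77.4 CPM in bear to 311 CPM in sugar glider. There baboon overlapped macaque, and beaver, bat, chipmunk and sugar glider overlapped in sequence. Cox4i1 ran from 61.3 CPM in baboon, with chipmunk and macaque overlapping, to 932 CPM in bat and 1497 CPM in white-footed mouse. Atp5b ran from 584 CPM in bear through baboon, macaque and beaver, which overlapped in sequence, and bat and chipmunk, which overlapped, to 2263 CPM in sugar glider and 2543 CPM in white-footed mouse, which overlapped. By CPM, bear or baboon was the lowest liver for all 10 genes, and the bat, sugar glider or white-footed mouse liver the highest. The TMM factors of the livers ran from 0.486 in white-footed mouse and 0.752 in bear to 1.59 in bat. The order of species can therefore differ with TMM scaling, and that order was not worked out here.

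Over the 15 group means of log2(CPM + 1), the correlation between pairs of the 10 genes ranged from -0.38 to 0.94 with a median of 0.45 over 45 pairs. These are descriptions over points that share libraries, total counts and species, and they carry no p. Pairs of other genes were not correlated, so the medians here have no background beside them. Ndufa9 with Atp5b had the highest r, 0.94, and Ndufb4 with Uqcrc2 the lowest, -0.38. The core proteins Uqcrc1 and Uqcrc2 had r = 0.11, and Ndufs1 and Ndufv1 had r = 0.13, while Ndufs1 and Uqcrc2 had r = 0.90. Without the white-footed mouse brain the median over pairs was 0.59, with Uqcrc1 and Uqcrc2 at 0.53. Without both white-footed mouse libraries and the bat liver the median was 0.77, with Uqcrc1 and Uqcrc2 at 0.85 and Ndufs1 and Ndufv1 at 0.78. Both of these settings were chosen after seeing the data. The genes most like the mean profile of the 10, of 7694 other genes with a mean of at least 20 CPM, were ENSMUSG00000022890 (r = 0.91) and ENSMUSG00000005354 (r = 0.91) over the 15 group means, and they are given by ID because no symbols were paired with them here.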

How the data were processed

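The values are unnormalized counts that the authors deposited in a single table, 16816 mouse Ensembl IDs by 48 libraries. Every column matched a sample by name, with 0 left over and 0 pairs identical. Per the submitters' processing notes, STAR and featureCounts were used. Versions, genome builds, strand use and the route from 8 species to mouse IDs are not stated in these sources, so counts are uncertain for genes with pseudogenes, close copies or overlapping neighbours. Between 94.3% and 99.4% of the counts from 1 to 20 in a library were even, as where both reads of a pair are counted, and a setting with counts divided by 2 was tried.

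Counts were tested with edgeR 4.0.16 in R 4.3.3 (TMM, filterByExpr, quasi-likelihood F test, two-sided, Benjamini-Hochberg over all genes tested, threshold 0.05), with 18 baboon, 17 macaque and 4 beaver libraries fitted within species. The SE comes from the F statistic. DESeq2 1.42.0, upper-quartile, RLE and total-count scaling, no filter, a replicate block and leaving out each library were alternatives. Permutation tests used scipy 1.17.1 in Python 3.11.15, and scripts were tested on simulated data. Depth was 6.33 M to 26.8 M counts (M, mega), and all intervals cover counting error only. The named genes are all 10 members, plus for likeness the 5 genes with the highest r, of which at most 2 IDs are printed. The members and lists were chosen with earlier results of these data known. The 19 lists of pathway genes and cell type markers are symbols, and the reference table at hand, of another species, holds no mouse IDs, so these lists gave no result. No sequences or coordinates of the genes were used here.

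Libraries with the same number were compared for shared deviations from their group means. The correlation was over 0.1 in every pair for baboon kidney and liver (6 of 6, 0.105 to 0.344), macaque kidney and liver (5 of 5, 0.225 to 0.295) and macaque kidney and cerebellum (5 of 5, 0.134 to 0.175). The tests printed for these comparisons are nevertheless unpaired. For single genes, blocked values stand beside them where the block changes a call. For the ratios the paired tests are given together. They left no call, but their smallest possible p put a call nearly out of reach after adjustment. The correlation was over 0.1 in 3 of 6 pairs of baboon brain and kidney, 0 of 6 of baboon brain and liver and 2 of 6 of macaque liver and cerebellum. Beaver has 2 pairs, too few to decide. The pairing is read from the data, since no source says what the numbers mark.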

Additional observations from a re-analysis of the deposited data

Results flagged for a closer look

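Within groups of 5 or 6 libraries, 7 of 90 sets of values had a library far from the others, where chance gives about 1 in 20. In macaque liver, library 1 had Ndufb4 at 1.27 CPM, below the other 5 at 2.19 to 2.70 CPM. Library 5 of macaque liver was high for Ndufv1, at 168 CPM with the others at 138 to 149 CPM, and for Sdha, at 377 CPM with the others at 316 to 339 CPM. In macaque cerebellum, library 4 was high for Ndufa9, at 153 CPM with the others at 124 to 132 CPM, and for Atp5b, at 2265 CPM with the others at 1730 to 1930 CPM. In baboon liver, library 4 had a log2 ratio of Ndufs1 to Ndufv1 of -0.61, below the others at -0.18 to 0.02. In baboon brain, library 2 had a log2 ratio of Sdha to Sdhb of 0.70, below the others at 0.88 to 0.95.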

How the results depend on the processing

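With total counts alone, 29 log2 fold changes of single genes turned. For baboon brain over liver these were Ndufb4 0.76, Ndufa9 1.14, Ndufs1 1.10, Ndufv1 1.30, Sdha 0.33 and Uqcrc2 1.03, and for baboon kidney over liver Sdha 1.24 and Sdhb 0.83. For macaque cerebellum over liver they were Ndufa9 1.10, Ndufs1 1.16, Ndufv1 0.59, Sdha 0.10, Uqcrc1 1.18, Uqcrc2 0.89, Cox4i1 1.16 and Atp5b 1.28. For macaque kidney over liver they were Sdhb 0.87 and Atp5b 1.21, and for cerebellum over kidney Ndufb4 0.15 and Atp5b 0.077. For beaver they were Ndufa9 0.64, Ndufs1 0.48, Ndufv1 1.33, Sdhb 0.27, Uqcrc1 0.50, Uqcrc2 0.44 and Atp5b 1.04. For baboon over macaque kidney they were Ndufv1 0.022 and Uqcrc1 0.024. Upper-quartile factors turned Atp5b in macaque kidney over liver (0.083) and Uqcrc2 in baboon over macaque liver (0.00651). The number of genes called in macaque kidney over liver went from 4 to 7 with upper-quartile factors and to 10 with total counts, and that of the interaction from 0 to 4 with total counts. Over all genes these went from 8788 to 8793 and to 11841, and from 1361 to 1688. Without the filter, calls in baboon over macaque liver went from 4 to 2, and over all genes from 2961 of 11948 to 3077 of 15151. With RLE factors, with DESeq2 and with counts divided by 2, every count of calls stayed within 1.5 times its value.

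Leaving out 1 library gave 3 to 6 calls in beaver brain over liver and 2 to 5 in baboon over macaque liver. It turned small values: Ndufb4 in baboon kidney over liver (-0.10 to 0.22), Sdha (-0.033 to 0.13) and Atp5b (-0.083 to 0.0040) in macaque kidney over liver, Ndufb4 in macaque cerebellum over kidney (-0.14 to 0.050), Ndufv1 in beaver (-0.24 to 0.18), Sdhb (-0.050 to 0.021) and Uqcrc2 (-0.071 to 0.029) in baboon over macaque liver, Uqcrc1 (-0.082 to 0.012) and Atp5b (-0.020 to 0.082) in kidney, and the ratio of Sdha to Sdhb in baboon brain over kidney (-0.075 to 0.044).

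With the replicate number as a block, the calls among the ratios went from 20 to 0, in tests whose smallest p is 0.03125 or 0.0625 (exact). After adjustment those limits put a call nearly out of reach, so the drop cannot decide whether the differences hold with pairing. The block left 8 counts of called genes within 1.5 times their value. Each library correlated best with one of its own number in 17 of 18 baboon and 15 of 17 macaque libraries, a hint from the data and not from the design. Among single genes the block ended 1 call, Atp5b in baboon kidney over liver (adjusted p = 0.0546 by edgeR), and added 2, Ndufa9 and Ndufs1 in macaque kidney over liver. It changed no other call of a single gene.

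Low counts limit Ndufb4 in baboon, and 1 library per group leaves bear, bat and white-footed mouse without an error.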
